A study of Mus musculus with 4 samples.

Results

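CM5 is the name the study gave to cardiomyocytes that respond to injury in the neonatal mouse heart. Each nucleus of the deposited table carries a final population name and a second name that was transferred from an earlier reference data set by matching expression profiles. The nuclei described here are those with the final name CM5 and a transferred name other than CM2, called CM5/other below. They numbered 274 of 8585 nuclei in all and 274 of 1017 CM5 nuclei. The other 743 CM5 nuclei carried the transferred name CM2 and are called CM5/CM2. They and the 5305 nuclei named CM1 by both names (CM1/CM1, the main ventricular cardiomyocytes) are the 2 populations with which CM5/other was compared. The numbering of the reference is not that of the final names: 0 of the 1017 CM5 nuclei were transferred CM5, while 197 of 275 nuclei with the final name CM2 were.

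Single-nucleus RNA sequencing was made in 4 libraries, 1 for each combination of genotype and surgery, labelled MI-WT, MI-KO, Sham-WT and Sham-KO. All mice carried loxP-flanked Nrf1 alleles (Nrf1fl/fl, the gene Nfe2l1), and the KO mice also carried an αMHC-Cre transgene, whose promoter drives Cre recombinase in cardiomyocytes, so that the WT mice were floxed controls without Cre. Myocardial infarction (MI) was made at postnatal day 3 by tying the left anterior descending coronary artery, and Sham mice had the thoracotomy without the ligature. Nuclei were isolated 1 day later from the tissue below the plane of the ligature, and each library pooled 4 to 6 hearts. The strain field of the labels differs from library to library, while the surgery protocol gives the C57BL/6 background for all mice, and the age at collection is the same in all groups.

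A cardiomyocyte near an infarct is stretched and deprived of oxygen. It is known to return to genes of the fetal heart, such as those of the natriuretic peptides, to make proteins that reinforce the Z-disc and the cell's attachments, and to reduce the genes of fatty acid oxidation and calcium cycling on which the maturing heart depends. Ankrd1 encodes a stretch-responsive protein that shuttles between the titin filament and the nucleus, Xirp2 an actin-binding protein of the intercalated disc, and Nppb the B-type natriuretic peptide. These 3 genes mark CM5.

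Each combination of surgery and genotype was 1 library, so a difference between libraries has no replicate check. The populations were compared within each of the 4 libraries. Both names were computed from the same unique molecular identifiers (UMIs, 1 for each captured RNA molecule) that are reported here, so that comparison describes how the nuclei were divided, and no test was made of either kind of difference. Values are UMIs summed over the nuclei of a population in a library, per 1000000 UMIs of that sum (CPM), with exact 95% intervals that cover counting error only. Differences are log2 ratios of CPM formed within each library and combined over libraries, for genes with 20 or more UMIs expected in the smaller sum if the populations were equal. A ratio of 2-fold or more (1 on the log2 scale) is the call used below. In a sum over nuclei, fewer nuclei that express a gene and less RNA per nucleus cannot be told apart.

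The CM5/other sums held 306392 UMIs in MI-WT, 263790 in MI-KO, 132466 in Sham-WT and 257236 in Sham-KO. The median CM5/other nucleus held 4157, 3829.5, 3291 and 2418 UMIs in that order, beside 4342.5, 3843, 3648 and 2660.5 in CM5/CM2. The share of UMIs from the mitochondrial genome had medians of 4.89%, 5.78%, 5.94% and 9.23% in CM5/other. Nfe2l1, the targeted gene, stood in CM5/other at 58.7 CPM in MI-WT (18 UMIs, interval 34.8 to 92.9), 64.4 in MI-KO (17 UMIs, 37.5 to 103), 90.6 in Sham-WT (12 UMIs, 46.8 to 158) and 38.9 in Sham-KO (10 UMIs, 18.6 to 71.5). In the deeper CM1/CM1 sums it stood at 44.7 CPM in MI-WT (215 UMIs, 38.9 to 51.1), 57.4 in MI-KO (253 UMIs, 50.5 to 64.9), 61.3 in Sham-WT (216 UMIs, 53.4 to 70.0) and 53.8 in Sham-KO (322 UMIs, 48.0 to 59.96). In both populations it was not lower in the library labelled MI-KO than in the library labelled MI-WT, so libraries are named by their labels. Whether the counted reads lie in the deleted part of the gene is not given in the sources used here. Of the cell barcodes, 9 occurred in more than 1 library, and 0 of the CM5/other nuclei carried 1 of them.

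The 4 promoters that follow are those of the 3 marker genes and of Egln3, a hypoxia-induced oxygen sensor, and are shown because the levels of these genes in CM5/other differed unequally from those in CM5/CM2. They are RefSeq sequences of GRCm38.p6, 300 bases each, from 250 bases before the start site to 50 after it, on the strand of the gene, and capitals mark matches to any of 4 motifs on either strand. The motifs searched were TGANTCA for AP-1 factors, CATTCC for TEAD factors (the partners of YAP), the consensus of MEF2 factors by its name alone, and ACGTG for hypoxia-inducible factors.
Ankrd1, chr19:36119795-36120094, minus strand: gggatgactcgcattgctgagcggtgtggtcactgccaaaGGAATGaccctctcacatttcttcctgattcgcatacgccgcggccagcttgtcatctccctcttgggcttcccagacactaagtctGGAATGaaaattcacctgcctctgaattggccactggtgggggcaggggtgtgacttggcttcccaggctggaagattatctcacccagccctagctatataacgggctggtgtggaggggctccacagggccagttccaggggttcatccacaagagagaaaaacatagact
Nppb, chr4:147985650-147985949, plus strand: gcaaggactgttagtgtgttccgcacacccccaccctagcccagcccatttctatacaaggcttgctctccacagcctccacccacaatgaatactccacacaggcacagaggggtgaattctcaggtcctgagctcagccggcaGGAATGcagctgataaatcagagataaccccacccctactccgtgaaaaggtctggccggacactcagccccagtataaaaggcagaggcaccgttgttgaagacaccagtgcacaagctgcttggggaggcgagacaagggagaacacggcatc
Xirp2, chr2:67445752-67446051, plus strand: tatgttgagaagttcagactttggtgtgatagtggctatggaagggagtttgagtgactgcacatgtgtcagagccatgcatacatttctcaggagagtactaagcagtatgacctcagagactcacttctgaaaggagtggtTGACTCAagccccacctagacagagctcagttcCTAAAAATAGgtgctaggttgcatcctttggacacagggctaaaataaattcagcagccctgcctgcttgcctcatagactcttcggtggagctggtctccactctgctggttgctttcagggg
Egln3, chr12:54203825-54204124, minus strand: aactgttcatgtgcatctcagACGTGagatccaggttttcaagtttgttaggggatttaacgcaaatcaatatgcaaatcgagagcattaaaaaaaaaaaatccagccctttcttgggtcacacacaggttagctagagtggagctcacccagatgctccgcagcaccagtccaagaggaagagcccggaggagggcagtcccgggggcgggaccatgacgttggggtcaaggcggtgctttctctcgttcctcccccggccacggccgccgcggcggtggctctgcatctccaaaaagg

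The promoter of Ankrd1 held the TEAD letters at 2 places, starting 210 and 123 bases before the start site, and that of Nppb held them 105 bases before it. The promoter of Xirp2 held no TEAD letters but an AP-1 match 107 bases before the start site and a MEF2 match 74 bases before it. That of Egln3 held the hypoxia letters 229 bases before the start site. Among all 32851 promoters of the same length, 7.81% held the AP-1 letters, 14.7% the TEAD letters, 3.69% the MEF2 letters and 19.6% the hypoxia letters. Of the 78 injury genes listed for this report, 62 had a promoter in the table, and of their 77 promoters 9.09%, 22.1%, 9.09% and 22.1% held these motifs in the same order. No motif overlapped another in the 4 sequences shown. A match describes the letters only.

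CM5/other took a smaller part of CM5 in the MI libraries than in the Sham libraries. They were 71 of 339 CM5 nuclei in MI-WT (20.9%, Clopper-Pearson interval 16.7 to 25.7) and 68 of 355 in MI-KO (19.2%, 15.2 to 23.6). In Sham-WT they were 37 of 89 (41.6%, 31.2 to 52.5) and in Sham-KO 98 of 234 (41.9%, 35.5 to 48.5). The share was 20.6 points lower in MI-WT than in Sham-WT, with a difference of -20.6 (-32.3 to -9.24), and the difference of MI-KO from Sham-KO was -22.7 points (-30.4 to -14.9).

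As a share of all nuclei, CM5/other differed less between surgeries: 3.54% in MI-WT, 3.68% in MI-KO, 2.63% in Sham-WT and 2.94% in Sham-KO. MI minus Sham was 0.913 points (counting interval -0.329 to 2.10) for the WT labels and 0.735 (-0.294 to 1.84) for the KO labels. CM5/CM2 was 13.4% of all nuclei in MI-WT and 15.5% in MI-KO, against 3.70% in Sham-WT and 4.09% in Sham-KO. Its differences were 9.68 points (7.84 to 11.5) and 11.4 points (9.66 to 13.3). All these intervals cover counting error of nuclei only. With 1 library for each label, a difference between surgeries was not tested.

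**Figure D1:**
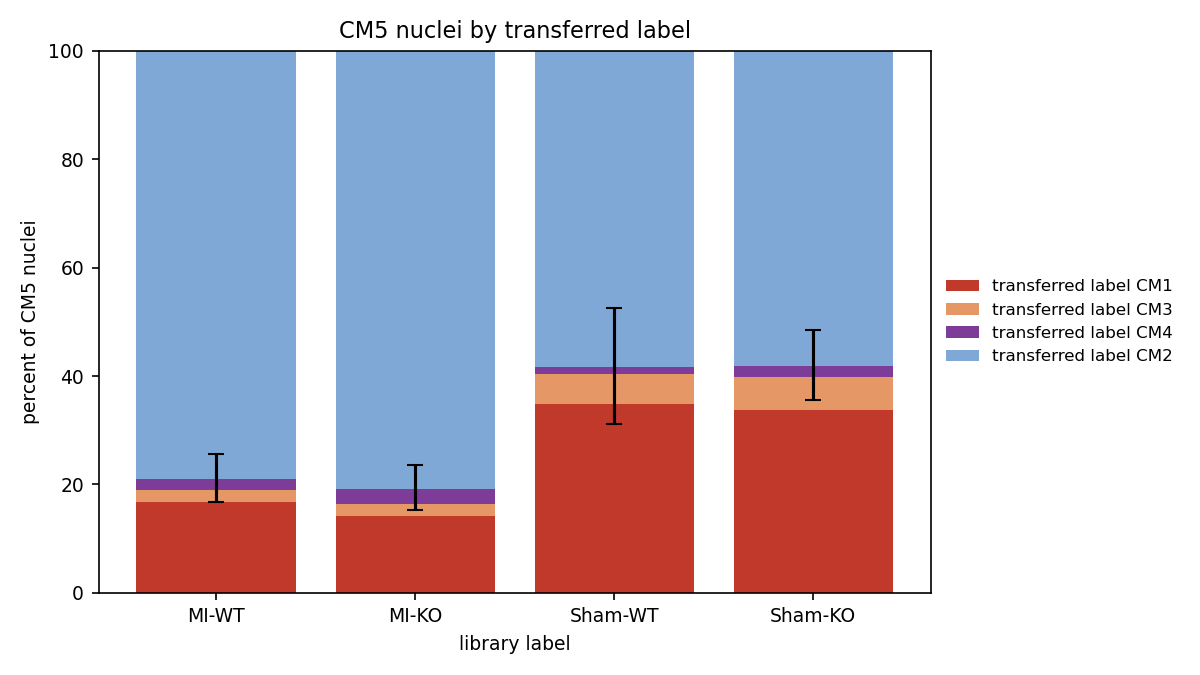
Stacked bars give the percent of CM5 nuclei (vertical axis, from 0) by transferred name in each library (horizontal axis), and the black error bar is the Clopper-Pearson 95% interval of the share with a name other than CM2. That share was 20.9% and 19.2% in the MI libraries and 41.6% and 41.9% in the Sham libraries, and the transferred name CM1 made up most of it in each.

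Among the 274 nuclei the transferred name was CM1 in 217, CM3 in 34 and CM4 in 23. The match was weak. The median score of the transferred name, on a scale from 0 to 1, was 0.557 in CM5/other, 0.779 in CM5/CM2 and 0.844 in CM1/CM1. The gap between the CM5 populations was wide in MI-WT and MI-KO, at 0.598 and 0.591 against 0.809 and 0.819 in CM5/CM2. It was narrow in Sham-WT and Sham-KO, at 0.537 and 0.534 against 0.588 and 0.634, so a weak match was shared there. CM2 was the runner-up in 200 of the 274 nuclei. The median CM2 score was 0.244 in CM5/other and 0 in CM1/CM1. In 27 of them the CM2 score was within 0.05 of the winning score, just inside the rule, and in 21 CM5/CM2 nuclei the runner-up was within 0.05 of CM2, just outside it.

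Tnnt2, the cardiomyocyte gene of troponin T, had a UMI in 274 of the 274 nuclei. The CM5 markers were present in CM5/other above their CM1/CM1 levels, but not to the same degree. Against CM1/CM1, Ankrd1 was higher with a log2 ratio of 1.37 (1.31 to 1.43), Nppb with 0.98 (0.88 to 1.07) and Xirp2 with 2.65 (2.47 to 2.84). Against CM5/CM2, Ankrd1 was slightly lower at -0.21 (-0.27 to -0.14), Nppb at -0.26 (-0.36 to -0.16) and Xirp2 far lower at -2.16 (-2.33 to -2.0). Nuclei of the MI libraries thus held most of the Ankrd1 and Nppb levels of CM5/CM2 and a small part of its Xirp2 level. In the Sham libraries the summed Nppb level was over 2-fold lower than in CM5/CM2, on few UMIs. In Sham-KO, 1 CM5/CM2 nucleus held 25 of the Nppb UMIs, and the ratio was not formed without it.

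Ankrd1 stood in CM5/other at 3731 CPM in MI-WT (3517 to 3953), 4098 in MI-KO (3857 to 4350), 642 in Sham-WT (513 to 793) and 708 in Sham-KO (608 to 818). In the same order it stood at 4399, 4388, 830 and 1074 CPM in CM5/CM2 and at 1498, 1624, 164 and 209 CPM in CM1/CM1. In each library CM5/other lay between the other populations and nearer to CM5/CM2, at 76.9%, 89.5%, 71.7% and 57.6% of the way from CM1/CM1.

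Xirp2 stood in CM5/other at 614 CPM in MI-WT (529 to 708), 421 in MI-KO (346 to 507), 45.3 in Sham-WT (6 UMIs, 16.6 to 98.6) and 81.6 in Sham-KO (21 UMIs, 50.5 to 125). It stood at 2736, 2133, 125 and 140 CPM in CM5/CM2 and at 87.3, 65.3, 22.7 and 17.4 in CM1/CM1. Here CM5/other lay nearer to CM1/CM1 in both MI libraries, at 19.9% and 17.2% of the way to CM5/CM2. Xirp2 was 4.48-fold lower than in CM5/CM2 over the 4 libraries.

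The share of nuclei with a Xirp2 UMI was also lower than in CM5/CM2. With each nucleus thinned to 1000 UMIs, Xirp2 was seen in 29.6% of CM5/other nuclei in MI-WT (19.3 to 41.6) and 27.9% in MI-KO (17.7 to 40.1), against 134 of 268 (43.9 to 56.1%) and 45.3% (39.4 to 51.3) of CM5/CM2. The shares in CM1/CM1, which also take in free RNA, were 7.67% and 5.42%. Without thinning the CM5/other shares were 59.2% and 47.1%, those of CM5/CM2 73.1% and 64.1% and those of CM1/CM1 23.3% and 18.5%. The CM5/other shares lay below those of CM5/CM2 and above those of CM1/CM1 either way, though the intervals of the CM5 populations met in MI-KO after thinning and in both MI libraries without it.

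Gm13601, a gene of unknown role on the opposite strand inside Xirp2 (chr2:67491044-67516525), had the same pattern. It stood at 166 CPM in MI-WT, 87.2 in MI-KO, 0 in Sham-WT (which allows up to 22.6) and 19.4 in Sham-KO in CM5/other, and at 476, 434, 36.3 and 34.4 CPM in CM5/CM2. Its log2 ratio to CM5/CM2 was -1.80 (-2.15 to -1.47). Whether the counting used strand is not given in the sources used here, so reads of Xirp2 (chr2:67446002-67526614) and Gm13601 cannot be told apart.

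The natriuretic peptide genes were closer to CM5/CM2 in the MI libraries than in the Sham libraries. The medians of the pair were -0.11 in MI-WT, 0.10 in MI-KO, -0.47 in Sham-WT and -0.98 in Sham-KO. The Sham-KO value includes a CM5/CM2 nucleus with 130 Nppa UMIs and one with 25 Nppb UMIs, the highest for each gene. Nppb stood in CM5/other at 1276 CPM in MI-WT (1153 to 1409), 1865 in MI-KO (1704 to 2037), 83.0 in Sham-WT (11 UMIs, 41.5 to 149) and 148 in Sham-KO (105 to 203). In CM5/CM2 it stood at 1564, 2041, 176 and 336 CPM, and in CM1/CM1 at 729, 823, 42 and 108. CM5/other was the lower CM5 population in all 4 libraries, by more in the Sham libraries.

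Nppa, the gene of the A-type peptide, stood in CM5/other at 3701 CPM in MI-WT (3489 to 3923), 6505 in MI-KO (6201 to 6820), 272 in Sham-WT (190 to 376) and 451 in Sham-KO (373 to 541). In CM5/CM2 it stood at 3495, 5193, 244 and 770 CPM. It was thus higher in CM5/other in 3 of the 4 libraries, with a log2 ratio of 0.18 (0.13 to 0.24) to CM5/CM2 and of 1.19 (1.14 to 1.25) to CM1/CM1. The CM5/other nucleus with the most held 235 of its 3002 UMIs. In Sham-KO, where CM5/other was lower, 1 CM5/CM2 nucleus held 130 Nppa UMIs, in a sum of 378106 UMIs of all genes. The comparison was not formed without that nucleus.

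**Figure D2:**
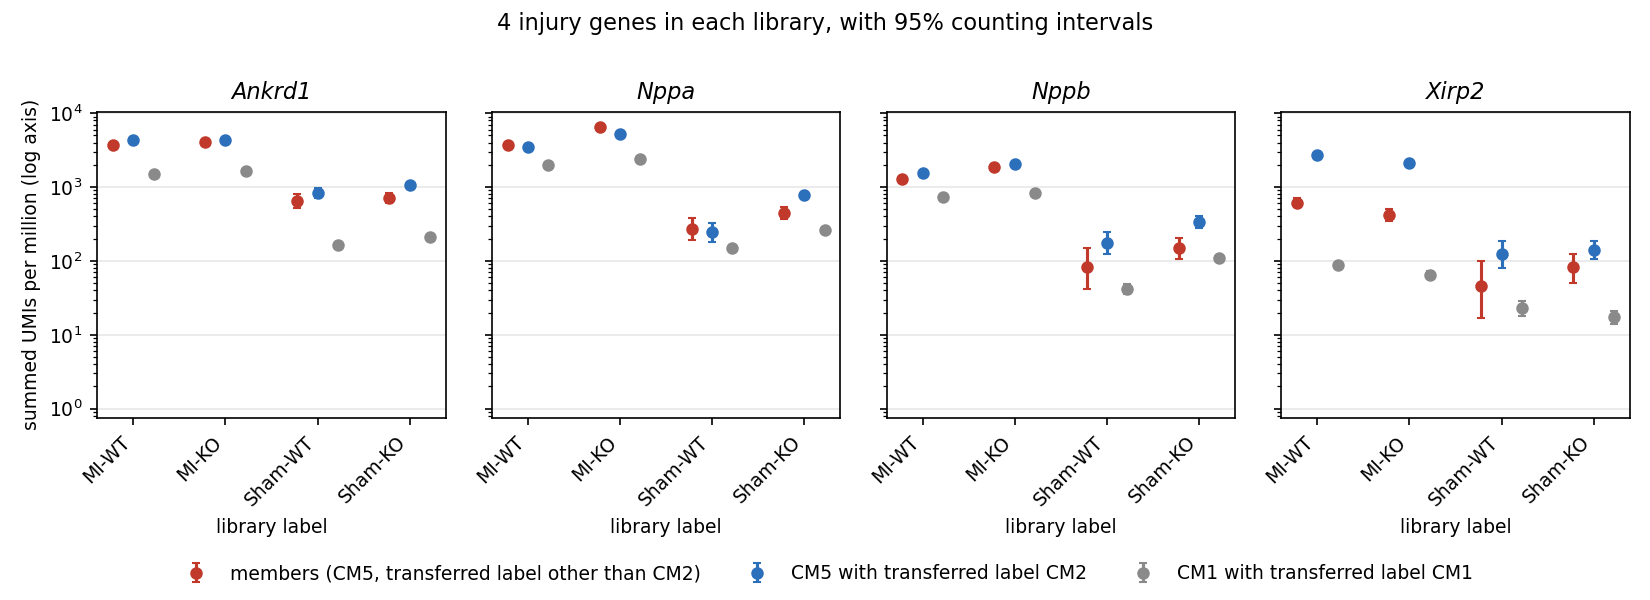
CPM (log axis) of 4 injury genes in each library (horizontal axis) for CM5/other (red), CM5/CM2 (blue) and CM1/CM1 (grey), with exact Poisson 95% intervals. In the MI libraries the red points of Ankrd1, Nppa and Nppb lie near the blue ones, whereas those of Xirp2 lie at 614 and 421 against 2736 and 2133, and in the Sham libraries those of Nppb lie at 83.0 and 148 against 176 and 336.

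Over all genes, CM5/other and CM5/CM2 were much alike on this scale. Of 6257 genes tested, 34 were 2-fold or more higher in CM5/other (0.543%) and 72 were 2-fold or more lower (1.15%). Against CM1/CM1, of 6266 genes, 65 were higher (1.04%) and 109 lower (1.74%), and with TMM factors for scaling 48 were higher and 171 lower, with the median of all genes shifted by -0.12. CM5/CM2 against CM1/CM1 gave 358 higher genes (3.67%) and 524 lower (5.38%) of 9746, a larger set tested because its sums were deeper. The counts of the 3 comparisons share populations and differ in depth, so they are given side by side only.

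The 8 injury lists held 78 genes, 76 of them in the matrix, and 57 could be tested against CM5/CM2. Of these 41 were lower and 16 higher in CM5/other, with a median log2 ratio of -0.21 beside -0.01 over all genes tested, and 6 were 2-fold or more lower and 1 higher. Against CM1/CM1, 43 of 49 tested were higher, 12 of them 2-fold or more and 1 lower by as much, with a median of 0.46. CM5/CM2 stood at 0.71 above CM1/CM1 for 67 genes tested, 27 of them 2-fold or more higher and 2 lower. The medians against CM5/CM2 were -0.29 in MI-WT, -0.14 in MI-KO, -0.13 in Sham-WT and -0.21 in Sham-KO.

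Per nucleus the medians of CM5/other were below those of CM5/CM2, by little in the Sham libraries. At 1000 UMIs per nucleus, the median CM5/other nucleus held 21 injury UMIs in MI-WT (quartiles 16 and 26) and 22.5 in MI-KO (quartiles 19 and 27), against 25 and 26 in CM5/CM2 and 12 and 13 in CM1/CM1. In the Sham libraries the medians were 7 and 9 in CM5/other, 8 and 10 in CM5/CM2 and 6 and 7 in CM1/CM1. At this depth the CM5/other median lay between those of the other populations in every library, and the ranges overlapped. The interval of its Sham-WT median, 5 to 9, held both other medians. At 500 UMIs per nucleus the Sham order was lost. The medians of CM5/other, CM5/CM2 and CM1/CM1 were then 3, 4 and 3 in Sham-WT and 4, 4 and 4 in Sham-KO. The lowest CM5/other nucleus held 8, 10, 2 and 3 injury UMIs in the order MI-WT, MI-KO, Sham-WT and Sham-KO, against 6, 8, 1 and 3 in CM5/CM2. These were the lowest of 71, 68, 37 and 98 nuclei against 268, 287, 52 and 136. The lowest of fewer nuclei tends to be higher, so these values do not compare the populations.

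**Figure D3:**
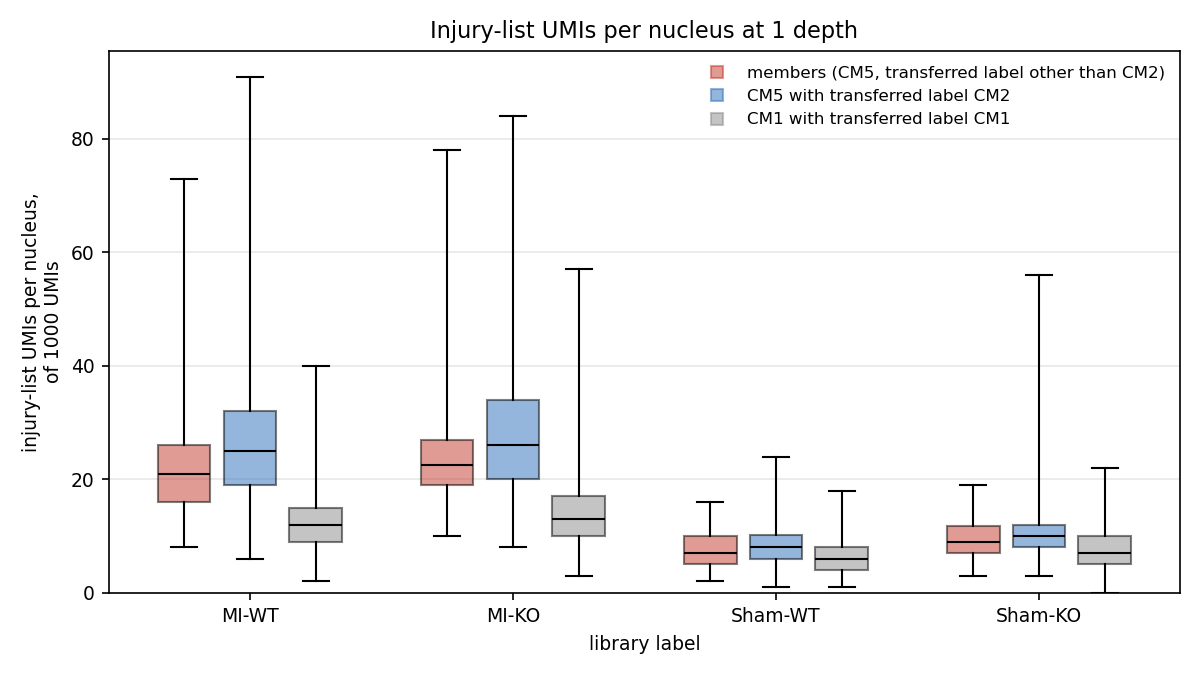
UMIs of the 8 injury lists per nucleus after thinning to 1000 UMIs (vertical axis) by library (horizontal axis) for CM5/other (red), CM5/CM2 (blue) and CM1/CM1 (grey). The line is the median, the box the quartiles and the whiskers the lowest and highest, and the CM5/other medians of 21 and 22.5 in the MI libraries lie below those of CM5/CM2 (25 and 26) and above those of CM1/CM1 (12 and 13).

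Genes of stretch and the Z-disc were retained in part. Of the 11 testable genes of that list, 9 were lower than in CM5/CM2, 1 of them by 2-fold or more (Xirp2), with a median of -0.21. Flnc, which encodes the actin crosslinker filamin C, stood at 232, 269, 113 and 77.8 CPM in CM5/other in the order MI-WT, MI-KO, Sham-WT and Sham-KO, against 454, 445, 109 and 97.9 in CM5/CM2. The libraries labelled MI differed and those labelled Sham hardly did, and the log2 ratio was -0.76 (-1.0 to -0.53). Fhl1, a LIM protein of the stretch sensor at titin, stood at 268, 227, 37.8 and 27.2 CPM against 351, 282, 36.3 and 58.2, and its ratio was -0.38 (-0.64 to -0.13). Csrp3, which encodes muscle LIM protein, had a ratio of 0.00 (-0.13 to 0.13) to CM5/CM2 and of 0.45 (0.33 to 0.57) to CM1/CM1.

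The list of actin adhesion genes and targets of YAP and serum response factor was lower than in CM5/CM2. This held for 10 of 10 tested, though 0 reached 2-fold, with a median of -0.22. The lower level lay in the MI libraries, with medians of -0.30 in MI-WT and -0.27 in MI-KO against 0.00 in Sham-WT and -0.10 in Sham-KO. Ccn2, a matricellular protein induced by YAP, was near CM5/CM2 in the MI libraries. It stood at 574, 656, 52.8 and 46.7 CPM in CM5/other, at 681, 682, 88.2 and 103 in CM5/CM2 and at 129, 146, 5.67 and 13 in CM1/CM1. Its log2 ratio was -0.20 (-0.37 to -0.03) to CM5/CM2 and 2.16 (1.99 to 2.33) to CM1/CM1. Its relative Ccn1 was further down, at 124 and 121 CPM in the MI libraries against 231 and 254, with a ratio of -0.94 (-1.31 to -0.59). Actn1, the alpha-actinin of adhesion sites, had a ratio of -0.97 (-1.18 to -0.76) to CM5/CM2 and of 1.31 (1.10 to 1.52) to CM1/CM1.

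Receptors and secreted factors held the injury genes that were lowest in CM5/other beside Xirp2. Cd44, the receptor for hyaluronan, stood at 71.8 CPM in MI-WT and 41.7 in MI-KO against 233 and 199 in CM5/CM2, and at 3 UMIs in each Sham library. Its log2 ratio was -1.76 (-2.27 to -1.28).

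Hbegf, a ligand of the epidermal growth factor receptor, stood at 49.0 and 98.6 CPM in the MI libraries against 143 and 224 in CM5/CM2, with a ratio of -1.24 (-1.72 to -0.80). In the Sham libraries Cd44 and Hbegf each held at most 8 UMIs in either CM5 population, too few to compare. The receptor Tnfrsf12a, for the cytokine TWEAK, had a ratio of -0.21 (-0.48 to 0.06) and Osmr, the oncostatin M receptor, of -0.26 (-0.85 to 0.30), and both intervals held 0. Of the receptor list 5 of 6 tested genes were lower than in CM5/CM2, 1 of them by 2-fold or more, with a median of -0.41. Of the secreted and matrix list 4 of 9 were lower, 2 of them by 2-fold or more, with a median of 0.15.

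The early transcription factors were sparse. Of 16 listed, 6 could be tested against CM5/CM2, and 6 of 6 were lower, with a median of -0.47. Atf3, a stress-induced factor of the AP-1 group, stood at 55.5 CPM in MI-WT and 22.7 in MI-KO against 69.2 and 89.5 in CM5/CM2, and at 0 UMIs in both Sham libraries, which allows up to 22.6 CPM in Sham-WT and 11.7 in Sham-KO. It had the only 2-fold difference of the list, at -1.12 (-1.82 to -0.49), and 9 of its 23 UMIs came from 1 nucleus. Klf6 had a ratio of -0.76 (-1.29 to -0.26).

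Of the oxidative and metal stress genes 5 of 6 tested were lower than in CM5/CM2, with a median of -0.38. Txnrd1, a thioredoxin reductase, had a ratio of -0.72 (-1.21 to -0.27) and Mt2, a metallothionein, of -1.23 (-2.36 to -0.27) on 10 UMIs. The proteasome list, whose genes are known targets of Nrf1, was level, with 14 of 31 tested genes higher than in CM5/CM2, 0 of them 2-fold apart, and a median of -0.03.

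Fetal forms of the contractile proteins went the other way in the MI libraries. Of 7 tested, 6 were higher than in CM5/CM2 over the 4 libraries, 1 of them by 2-fold or more, with a median of 0.19. The medians were 0.41 in MI-WT and 0.32 in MI-KO, but -0.60 in Sham-WT and -0.10 in Sham-KO. Acta1, skeletal alpha-actin, stood at 111, 193, 7.55 and 27.2 CPM in CM5/other against 83.7, 125, 15.6 and 21.2 in CM5/CM2, with a ratio of 0.51 (0.15 to 0.86). The 2-fold gene was Tagln, of the smooth muscle cytoskeleton, at 1.34 (0.83 to 1.83), but 22 of its 59 UMIs came from 1 nucleus.

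**Figure D4:**
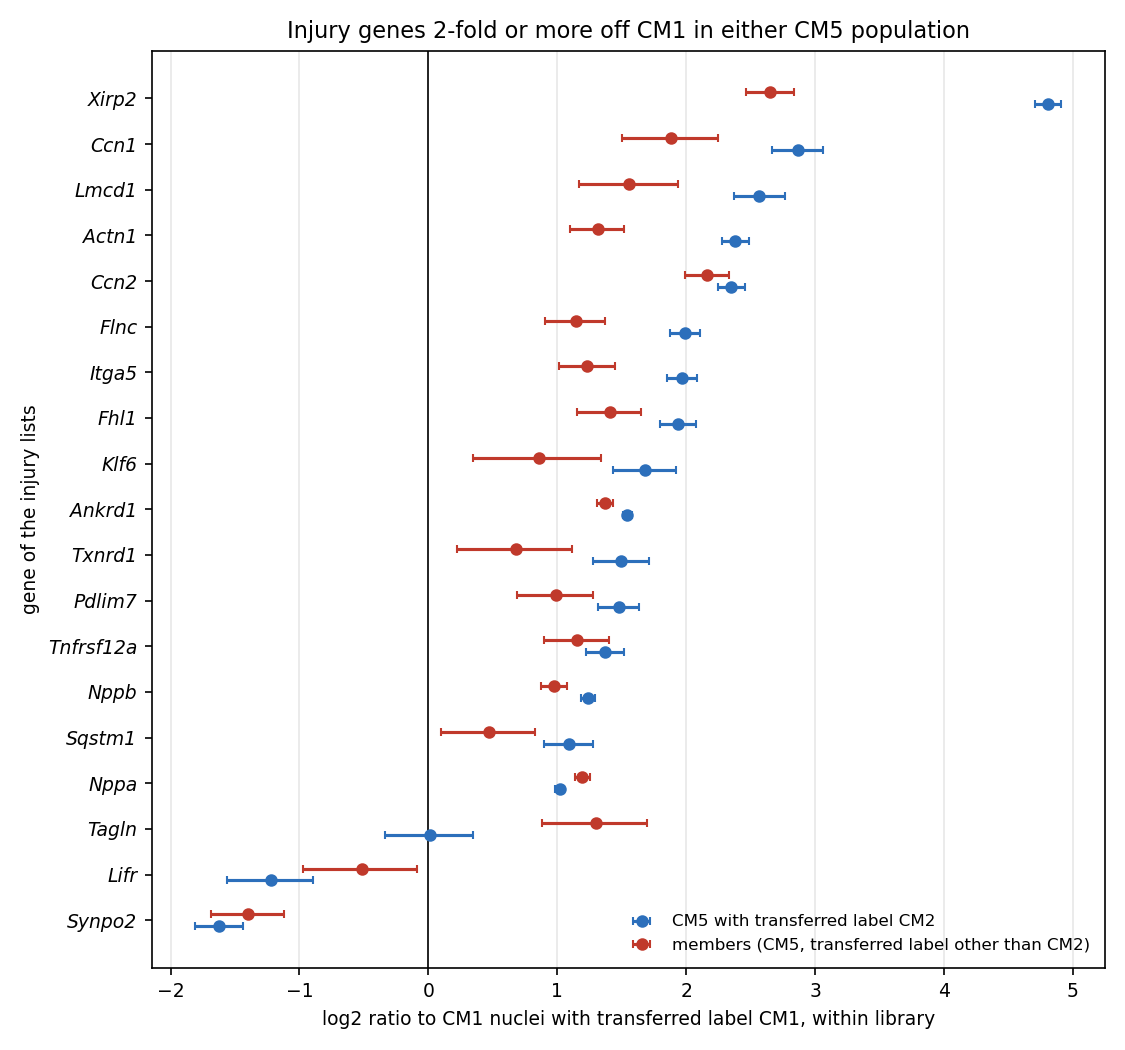
Log2 ratios to CM1/CM1 within library (horizontal axis) of the 19 injury genes that passed the count filter and were 2-fold or more off in either CM5 population, for CM5/other (red) and CM5/CM2 (blue), with exact 95% counting intervals. CM5/other lies below CM5/CM2 for 15 of the 19, with the widest gap at Xirp2 (2.65 against 4.81), and above it for the other 4, Nppa and Tagln among them. The genes were chosen by these same ratios, so the count of 15 follows in part from the choice. Of all 57 injury genes tested against CM5/CM2, 41 were lower.

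Genes of glycolysis and hypoxia showed a wide gap. Of 17 tested, 14 were lower than in CM5/CM2, 3 of them by 2-fold or more, and the median of -0.43 was formed in the MI libraries, at -0.51 in MI-WT and -0.50 in MI-KO against 0.10 in Sham-WT and 0.01 in Sham-KO. Ndrg1, a hypoxia-induced gene, stood at 16.3 CPM in MI-WT (5 UMIs) and 15.2 in MI-KO (4 UMIs) against 128 and 103 in CM5/CM2 and 11.2 and 11.3 in CM1/CM1. Its ratio was -2.22 (-3.08 to -1.47).

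Egln3, whose promoter is shown above, stood at 71.8 and 37.9 CPM in the MI libraries against 195 and 203 in CM5/CM2 and 32.0 and 32.0 in CM1/CM1, with a ratio of -1.69 (-2.21 to -1.20). Slc2a1, the basal glucose transporter, stood at 71.8 and 41.7 against 130 and 169, with a ratio of -1.13 (-1.63 to -0.66). Aldoa, which encodes a glycolytic aldolase, was not lower, at 0.17 (-0.01 to 0.36). In the MI libraries Ndrg1 in CM5/other was thus near its CM1/CM1 level, and Egln3 and Slc2a1 between the populations.

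Genes of fatty acid oxidation and calcium handling were lower than in CM1/CM1, mainly in the MI libraries. Of 18 genes of fatty acid oxidation and its regulators, 16 were lower than in CM1/CM1, 2 of them by 2-fold or more, with a median of -0.30, and the median of CM5/CM2 was -0.57. By library the medians were -0.73 in MI-WT, -0.64 in MI-KO, -0.08 in Sham-WT and -0.05 in Sham-KO, beside -0.73, -1.11, -0.11 and -0.03 in CM5/CM2, so that the gap between the CM5 populations lay in MI-KO. Cd36, the fatty acid carrier of the cell membrane, stood at 222, 265, 755 and 684 CPM in CM5/other, at 145, 159, 643 and 550 in CM5/CM2 and at 495, 524, 796 and 752 in CM1/CM1. CM5/other lay between the populations in all 4 libraries, and its ratio to CM5/CM2 was 0.44 (0.25 to 0.62). Ppara, the nuclear receptor that governs the pathway, stood at 94.7, 56.9, 143 and 117 CPM in CM5/other and at 47.8, 43.9, 182 and 182 in CM5/CM2, higher in the MI libraries and lower in the Sham libraries, with ratios of 0.03 (-0.35 to 0.39) to CM5/CM2 and -1.16 (-1.47 to -0.86) to CM1/CM1. Esrrb, a related orphan receptor, was the other 2-fold gene, at -1.03 (-1.49 to -0.60) against CM1/CM1.

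Among the calcium handling genes 9 of 10 were lower than in CM1/CM1, with a median of -0.23 beside -0.56 in CM5/CM2. By library the medians were -0.48, -0.36, -0.03 and -0.11 in CM5/other and -0.89, -0.83, -0.07 and -0.02 in CM5/CM2, so that this gap lay in the MI libraries. Ryr2, the calcium release channel, stood at 4592, 3878, 8576 and 6589 CPM in CM5/other, at 3327, 3098, 7865 and 6834 in CM5/CM2 and at 7650, 7035, 9707 and 8163 in CM1/CM1. It was intermediate in 3 of the 4 libraries and lowest in Sham-KO. The respiratory chain subunits were near level, with 60 of 77 higher than in CM5/CM2, 0 of them 2-fold apart, and a median of 0.09. Contractile genes had a median of 0.07 against CM5/CM2 and of 0.10 against CM1/CM1 for 12 genes tested, of which Tnnt2, cardiac troponin T, was at 0.01 (-0.05 to 0.07) against CM5/CM2. The transcripts of the mitochondrial genome had a median of -0.01 for 12 genes tested, the cell death list one of -0.31 for 5, and the cell cycle list held 1 testable gene of 19.

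A separate group of genes was higher in CM5/other than in CM5/CM2. By the rule for named genes, those with the highest log2 ratios among genes higher in each library counted were Thsd4 at 2.38, Myl4 at 1.56, 1700042O10Rik at 1.48, Colq at 1.46, Gm15261 at 1.37, Grip2 at 1.36, Limch1 at 1.17, Cgnl1 at 1.13, Orc2 at 1.09 and Ddc at 1.09. Thsd4, Colq, Grip2 and Limch1 were also lower in CM5/CM2 than in CM1/CM1, with ratios of -1.82, -2.65, -1.93 and -1.55, so that CM5/other stood nearer to CM1/CM1 for them. Ddc and 1700042O10Rik were high in the nuclei transferred CM3, a name that CM5/CM2 leaves out by definition.

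Thsd4, which encodes a matrix protein of elastic microfibrils, stood at 209, 273, 37.8 and 73.9 CPM in CM5/other, at 40.1, 45.6, 15.6 and 23.8 in CM5/CM2 and at 163, 141, 74.6 and 68.1 in CM1/CM1. It was above CM1/CM1 in both MI libraries. Its UMIs came from 67 of the 274 nuclei, and the nucleus with the most held 12 of 160.

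Long RNAs of 1 imprinted locus on chromosome 12 stood out in the MI libraries. Meg3 (chr12:109541001-109571726), a maternally expressed long RNA, stood at 1025 CPM in MI-WT, 709 in MI-KO, 22.7 in Sham-WT (3 UMIs) and 77.8 in Sham-KO in CM5/other. In CM5/CM2 it stood at 222, 209, 46.7 and 108 CPM and in CM1/CM1 at 310, 379, 44.0 and 39.7. The MI values of CM5/other were the highest of the 3 populations and the Sham values were not. The ratio to CM5/CM2 was 1.85 (1.67 to 2.03) over all libraries and -0.57 in the Sham libraries alone.

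A Meg3 UMI was seen in 35.2% of CM5/other nuclei in MI-WT (24.2 to 47.5) and 41.2% in MI-KO (29.4 to 53.8), against 17.9% and 19.2% of CM5/CM2 and 20.9% and 24.6% of CM1/CM1, whose depths were alike. Rian, which lies in the same locus, stood at 215, 167, 7.55 and 35.0 CPM in CM5/other against 61.5, 65.8, 15.6 and 47.6 in CM5/CM2, with a ratio of 1.37 (1.02 to 1.72). Both overlap small RNA genes, so their reads are uncertain. Of the other nuclear long RNAs, Malat1 was level at -0.01 (-0.02 to 0.00), and Neat1 was lower at -0.72 (-0.86 to -0.58) while 1.10 (0.97 to 1.24) above CM1/CM1.

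Among the genes lowest against CM5/CM2 by the same rule were Xirp2 at -2.16, Gm13601 at -1.80, Kctd16 at -1.46, Loxl2 at -1.34, Tspan7 at -1.33, G2e3 at -1.24, Ankrd44 at -1.20, Anxa7 at -1.20 and Fam13b at -1.16. Loxl2, a collagen crosslinking enzyme, stood at 88.1 and 72.0 CPM in the MI libraries against 221 and 227, and at 39.1 and 45.4 in CM1/CM1. Kctd16, an auxiliary subunit of the GABA-B receptor, stood at 150 and 102 CPM against 411 and 288.

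Against CM1/CM1 the highest were Xirp2 at 2.65, 1700042O10Rik at 2.50, Ddc at 1.90, Tlr4 at 1.70, Kctd8 at 1.55, Tgfb2 at 1.53, Uck2 at 1.41, Wnt5b at 1.40, Adam9 at 1.39 and Ankrd1 at 1.37. By definition CM1/CM1 leaves out nuclei with the transferred name CM3, which CM5/other includes. Over the 4 libraries, Ddc and 1700042O10Rik stood at 1406 and 696 CPM in CM1 nuclei transferred CM3. They stood at 88.1 and 27.4 CPM in CM1/CM1 and at 114 and 31.4 in CM5/other nuclei transferred CM1. Tlr4, the receptor for endotoxin and for molecules released by damaged cells, was near its CM5/CM2 level, at 516, 368, 128 and 159 CPM against 454, 314, 119 and 177, with a ratio of 0.16 (-0.03 to 0.34). Tgfb2, a ligand of the transforming growth factor beta family, was not, at 212 and 155 CPM in the MI libraries against 375 and 289 and a ratio of -0.90 (-1.19 to -0.62). Kctd8 (-0.12) and Wnt5b (-0.29) were near CM5/CM2, and Uck2 (-1.02) and Adam9 (-0.45) were below it.

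The lowest against CM1/CM1 were Angpt1 at -2.65, D830013O20Rik at -2.62, Il15 at -2.27, Fgf14 at -2.15, Acss1 at -2.09, Dcc at -1.97, Gm17276 at -1.93, Klhl3 at -1.90, D830032E09Rik at -1.86 and Wnk2 at -1.85. Angpt1, the ligand of the Tie2 receptor on endothelium, stood at 6.53, 15.2, 22.7 and 42.8 CPM in CM5/other, at 6.83, 3.51, 31.1 and 34.4 in CM5/CM2 and at 94.5, 89.8, 228 and 167 in CM1/CM1. It was low in both CM5 populations of all 4 libraries, Sham included.

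The transferred names divided CM5/other further. Within the MI libraries, 107 nuclei were transferred CM1, 15 CM3 and 17 CM4. Ankrd1 stood at 4059, 3862 and 2833 CPM in these 3 groups and Nppa at 5030, 4291 and 5508, so both were high in each. Xirp2 stood at 505, 352 and 839 CPM, below the 2438 of CM5/CM2 in the same libraries in each.

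The nuclei with the transferred name CM3 carried Ddc, which encodes the decarboxylase that makes dopamine and serotonin. In the MI libraries Ddc stood at 1517 CPM in them, with a UMI in 15 of 15 nuclei, at 111 CPM in those transferred CM1 and at 116 in CM5/CM2. CM1 nuclei with the transferred name CM3 stood at 1134 CPM. The antisense gene 1700042O10Rik, which lies inside Ddc on chromosome 11, stood at 858 CPM in the CM3 group and at 34 in the CM1 group. The higher level of both genes in CM5/other as a whole lay in the CM3 group: with the CM1 group alone, the ratios to CM5/CM2 were -0.40 for Ddc and -0.78 for 1700042O10Rik. As the transferred name was computed from expression, these values describe how it divides the nuclei.

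The nuclei transferred CM4 were few and varied. In the MI libraries they held Flnc at 823 CPM (52 UMIs in 13 of 17 nuclei) and Lmcd1, a transcriptional cofactor, at 364 CPM (23 UMIs in 9), above the 450 and 199 of CM5/CM2. Cd44 stood at 158 CPM in them, 47.5 in the CM1 group and 216 in CM5/CM2. They also held Eln, elastin, at 491 CPM, but its 31 UMIs came from 3 nuclei, 25 of them from 1. The atrial light chain gene Myl4 stood at 190 CPM in them (12 UMIs in 3 nuclei) and 58.9 in the CM1 group. In nuclei named CM4 by both names, Myl4 stood at 309 CPM and Eln at 138 in the same libraries. Summed over the 4 libraries, the fibroblast markers stood at 3244 CPM in the CM4 group, 859 in the CM1 group and 2186 in nuclei named CM4 by both names. The gap between the CM4 and CM1 groups moves with Flnc and Eln, and the part of these markers was not tested. In the same sums the injury lists stood at 23328 CPM in the CM4 group and 23680 in CM5/CM2, against 16918.5 in the CM1 group and 15257 in the CM3 group. Nuclei of the MI libraries were 17 of 23, 555 of 743, 107 of 217 and 15 of 34 in that order.

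The CM1 group carried Meg3 and Thsd4. In the MI libraries Meg3 stood at 1053 CPM in it (45 of 107 nuclei with a UMI), 368 in the CM3 group and 190 in the CM4 group. Thsd4 stood at 301, 30.6 and 15.8 CPM in the same order, on 133, 2 and 1 UMIs.

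**Figure D5:**
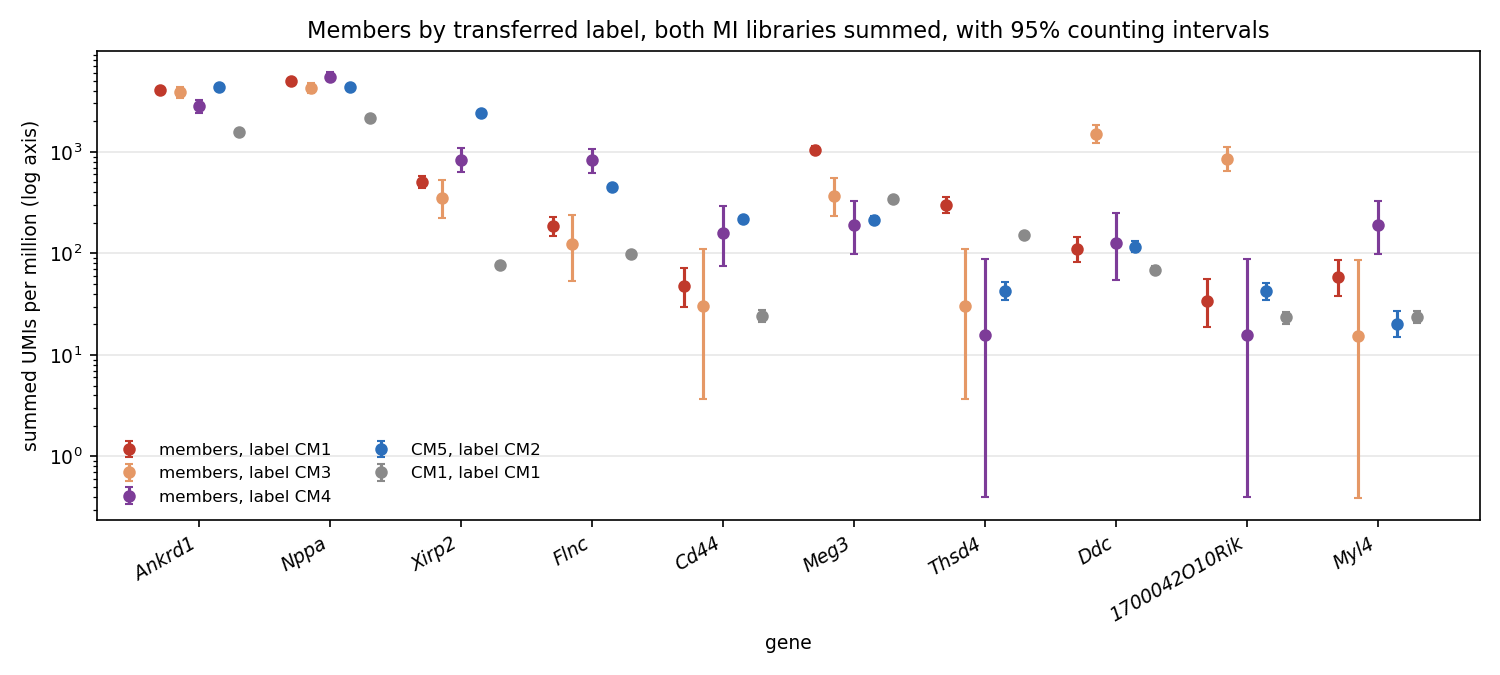
CPM (log axis) of 10 genes (horizontal axis) in CM5/other nuclei of both MI libraries by transferred name, CM1 (red, 107 nuclei), CM3 (orange, 15) and CM4 (purple, 17), beside CM5/CM2 (blue) and CM1/CM1 (grey), with exact Poisson 95% intervals. Ankrd1 and Nppa are high in all 3 groups, Ddc stands at 1517 in the CM3 group, Flnc at 823 in the CM4 group and Meg3 at 1053 in the CM1 group.

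Some values rested on 1 nucleus. Fgf12, chosen here after its values were seen, had 132 UMIs in CM5/other, 131 of them in 1 MI-KO nucleus. Its log2 ratio of 6.82 to CM5/CM2 became -0.63 without that nucleus. For Xirp2 the CM5/other nucleus with the most held 30 of 326 UMIs and for Ankrd1 43 of 2491. In CM5/CM2, 1 nucleus of MI-WT held 343 of the 5713 Xirp2 UMIs, and the highest of MI-KO held 149. The Xirp2 ratio to CM5/CM2 was not formed without these nuclei.

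Markers of other cell types were present in all 3 populations. Summed over its list, the fibroblast markers stood at 816 to 1350 CPM in CM5/other, against 799 to 1027 in CM5/CM2 and 795 to 919 in CM1/CM1. Its highest value was in MI-KO, where CM5/CM2 stood at 868. The red blood cell markers ranged from 1209 to 5568 CPM in CM5/other, highest in MI-WT, against 1634 to 3202 in CM5/CM2 and 1915 to 3881 in CM1/CM1, and 188 of the 1285 UMIs of Hbb-bs, an adult beta globin, came from 1 nucleus. Myeloid markers stood at 81.6 to 450 CPM and were higher in the MI libraries in all 3 populations, endothelial markers at 98.1 to 167, mural markers at 68.5 to 284, epicardial markers at 22.6 to 56.9 and atrial markers at 7.55 to 190. Of the listed markers, 0 of 10 to 4 of 10 myeloid genes, 0 of 7 to 1 of 7 fibroblast genes, 0 of 7 to 3 of 7 endothelial genes and 1 of 5 to 4 of 5 atrial genes were at 0 in a CM5/other sum. The part of these RNAs in the ratios was not tested.

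CM5/other itself differed strongly between surgeries. Of 1037 genes tested between MI-WT and Sham-WT, 94 were 2-fold or more higher in MI-WT (9.06%) and 70 lower (6.75%), and with TMM factors 129 and 47 (median-of-ratios size factors 130 and 47), with the median of all genes shifted by 0.15 (0.16). Of 2172 tested between MI-KO and Sham-KO, 190 were higher in MI-KO (8.75%) and 168 lower (7.73%). Of the injury genes, 13 of 22 tested were 2-fold or more higher and 0 lower for the WT labels, with a median log2 ratio of 1.28, and 16 of 32 higher and 2 lower for the KO labels, with a median of 0.91. The share of injury genes past 2-fold was above the share of all genes for both labels.

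The marker genes were far higher in MI. The log2 ratio of MI to Sham in CM5/other was 3.94 (3.09 to 4.96) for Nppb and 3.77 (3.29 to 4.29) for Nppa for the WT labels, and 3.66 (3.18 to 4.17) and 3.85 (3.58 to 4.13) for the KO labels. For Ankrd1 it was 2.54 (2.22 to 2.87) and 2.53 (2.31 to 2.77). For Xirp2 it was 3.76 (2.61 to 5.22) and 2.37 (1.68 to 3.11). The counting interval of each of the 4 genes lay above 1 for both labels. The rise was not particular to CM5/other, as these genes were also higher in MI in CM1/CM1. There Ankrd1 stood at 1498 and 1624 CPM in MI-WT and MI-KO against 164 and 209 in Sham-WT and Sham-KO. In the same order, Nppa and Nppb together stood at 2685 and 3191 CPM against 191 and 370. Xirp2 stood at 87.3 and 65.3 CPM against 22.7 and 17.4. Whether the size of the rise differed between the populations was not tested.

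Fatty acid genes were lower in MI, 9 of 9 tested for the WT labels, 6 of them by 2-fold or more, and 15 of 15 for the KO labels, 11 of them by 2-fold or more. Cd36 had ratios of -1.77 (-2.23 to -1.31) and -1.37 (-1.79 to -0.96), and Fabp3, the fatty acid binding protein of the cytosol, of -1.35 (-1.55 to -1.16) and -1.48 (-1.63 to -1.34). Respiratory chain subunits had medians of -0.67 for 57 genes tested and -0.97 for 74. Against CM1/CM1 of the same library their medians were near level, at -0.16 in MI-WT, 0.08 in MI-KO and 0.09 in both Sham libraries. The median share of UMIs from the mitochondrial genome was also lower in MI, at 4.89% against 5.94% for the WT labels and 5.78% against 9.23% for the KO labels, and the median depth was higher, at 4157 against 3291 and 3829.5 against 2418 UMIs, and their part in these values was not tested. Meg3 was higher in MI, with ratios of 5.50 (3.94 to 7.79) on 314 and 3 UMIs and 3.19 (2.52 to 3.93) on 187 and 20 UMIs.

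Between genotype labels CM5/other differed less. Of 2240 genes tested between MI-KO and MI-WT, 29 were 2-fold or more higher in MI-KO (1.29%) and 25 lower (1.12%), and with TMM factors 24 and 40. Of 1034 tested between Sham-KO and Sham-WT, 45 were higher in Sham-KO (4.35%) and 15 lower (1.45%), and with TMM factors 68 and 9 (size factors 61 and 10), with the median of all genes shifted by 0.13 (0.10). Injury genes had a median log2 ratio of 0.06 for 38 tested in the MI libraries and of 0.37 for 14 in the Sham libraries.

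Nppa was higher in the library labelled MI-KO than in that labelled MI-WT, with a log2 ratio of 0.81 (0.70 to 0.92), as was Nppb at 0.55 (0.35 to 0.74), while Xirp2 was lower at -0.54 (-0.90 to -0.20) and Ankrd1 near level at 0.14 (0.01 to 0.26). In the Sham libraries 73 of 73 respiratory chain subunits tested were higher in Sham-KO, 26 of them by 2-fold or more, with a median of 0.82. This was not particular to CM5/other, whose median for these subunits against CM1/CM1 was 0.09 in both Sham libraries. The median share of UMIs from the mitochondrial genome moved with it, at 9.23% in Sham-KO and 5.94% in Sham-WT (8.66% and 6.13% in CM1/CM1). So did the median depth, at 2418 and 3291 UMIs, and their part in the result was not tested. With 1 library each, the genotype, the pool of hearts and the library cannot be told apart.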

How the data were processed

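Nuclei of 4 libraries were prepared with a 10x Genomics 3′ kit (v2 per the labels, v3 in the methods). The authors aligned reads to the mm10/GRCm38 pre-mRNA reference and counted UMIs with Cell Ranger, removed doublets with Scrublet and nuclei with fewer than 200 or more than 2500 detected genes, and deposited whole-number UMI counts of 22574 genes in 8585 nuclei, of which 0 rows named no gene. Whether counting used strand is not given in the sources used here. The deposited table of nuclei gives the library, the final population, the transferred name, the percent of UMIs from the mitochondrial genome, which the authors computed per nucleus, and transfer scores as a fraction from 0 to 1, which the authors obtained with Seurat 3. After the transfer the authors merged CM1 and CM3. Of its columns, 3 were not used.

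UMIs were summed per population and library with Python 3.11.15 (numpy 2.4.6, scipy 1.17.1, pandas 2.3.3; figures with matplotlib 3.10.9) and divided by the total of the sum. Log2 ratios were conditional maximum likelihood estimates within library, with exact intervals. A gene was tested with 20 or more UMIs expected, a call was 2-fold, and the limit of a count of 0 was 3 UMIs. Thinning to 1000 UMIs used seed 1. TMM factors came from edgeR 4.0.16 in R 4.3.3. The sums per library covered 132466 to 306392 UMIs of CM5/other, and intervals cover counting error only, since each combination of surgery and genotype was 1 library. The estimator was tested on simulated data.

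Named genes were the 3 markers, Nfe2l1, the injury lists, the member of each other list with most UMIs or past 2-fold, and the 10 highest and 10 lowest ratios of both population comparisons, among genes on the same side of 0 in every library with 5 or more UMIs expected (at least 3 libraries). Some genes that the rule names are not reported here. The members and lists were chosen with earlier results of these data known. Of the symbols, 22122 (98.0%) were in GENCODE M21. Alternatives were other scalings, filters, weights, thinning, transfer scores, transferred names and leaving out each library.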

Additional observations from a re-analysis of the deposited data

Results flagged for a closer look

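For 4 genes the log2 ratio of CM5/other to CM5/CM2 had opposite signs in the pair of MI libraries and the pair of Sham libraries, with both counting intervals clear of 0. The difference between the pairs was not tested, and many genes were looked at. Acta2, smooth muscle actin, had a ratio of 0.45 (0.19 to 0.71) in MI and -0.41 (-0.80 to -0.02) in Sham. Myh7, the fetal ventricular myosin heavy chain of the mouse, had 0.21 (0.09 to 0.33) in MI and -0.33 (-0.62 to -0.05) in Sham. Ppara had 0.74 (0.20 to 1.26) in MI and -0.54 (-1.06 to -0.03) in Sham. Slc8a1, the sodium-calcium exchanger, had 0.36 (0.32 to 0.39) in MI and -0.10 (-0.15 to -0.05) in Sham.

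Against CM1/CM1, Slc8a1 stood at -0.27 (-0.30 to -0.24) in MI and 0.34 (0.30 to 0.38) in Sham, and Ttn, titin, at -0.21 (-0.25 to -0.17) in MI and 0.05 (0.00 to 0.10) in Sham. These differences were not tested either.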

How the results depend on the processing

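A difference between libraries had no replicate check because each combination of surgery and genotype was 1 library. The populations were compared within each of the 4 libraries and were put to no test, since both names were computed from the same UMIs. The depth of the CM5/other sums limited which genes could be tested. Of 223 alternative values of summary results 172 stayed within the spread allowed and 51 did not, and of 6871 alternative values of single genes 356 had the other sign, 21 of them among the 2466 whose value as reported was 2-fold or more. The 2-fold counts are given as higher and lower, beside 34 and 72 for CM5/other against CM5/CM2, 65 and 109 against CM1/CM1, and 358 and 524 for CM5/CM2 against CM1/CM1. The cause of a change was not tested unless it follows from fewer genes tested or fewer nuclei.

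Against CM5/CM2, the counts were 11 and 30 with nuclei thinned to 1000 UMIs, 90 and 165 with a filter of 10 UMIs, 10 and 34 with a filter of 40, and 8 and 20 with the CM3 and CM4 groups alone, where the injury median was -0.0498. Against CM1/CM1 they were 22 and 40 thinned, 118 and 213 with a filter of 10, 39 and 50 with a filter of 40, 25 higher with the CM3 and CM4 groups alone and 171 lower with TMM factors. Thinning and filters change how many genes are tested. CM5/CM2 against CM1/CM1 gave 201 and 276 thinned. Within CM5/other, thinning gave 32 and 14 for MI against Sham (WT labels), 35 and 73 (KO labels), 18 and 7 for KO against WT in MI and 9 and 1 in Sham. TMM factors gave 40 lower for KO against WT in MI, and 68 and 9 in Sham. Without the upper quartile of nuclei by markers of other cell types, MI against Sham (KO labels) gave 124 higher. With scores of 0.5 or more, CM5/other was 16.1% of CM5 in MI-WT.

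Leaving out 1 library at a time gave 18 to 33 higher and 47 to 81 lower genes against CM5/CM2 (18 and 47 without MI-KO) and an injury median of -0.26 to -0.14. Against CM1/CM1 it gave 37 to 80 higher and 61 to 165 lower (37 and 61 without MI-WT, 40 and 67 without MI-KO, 165 lower without Sham-KO). CM5/CM2 against CM1/CM1 gave 231 to 391 and 324 to 635 (231 and 324 without MI-WT, 335 lower without MI-KO).

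Alternatives chosen after seeing the data were these. Without the CM5/other nucleus with most UMIs of each gene, the counts were 17 and 117 against CM5/CM2 and 166 lower against CM1/CM1. With the MI libraries alone, 214 were lower against CM1/CM1. With the Sham libraries alone, they were 19 and 22 against CM5/CM2 and 8 and 30 against CM1/CM1, where the injury median was 0.21.

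Against CM5/CM2, the ratio of Fgf12 ran from -0.054 (without MI-KO) to 8.15 (without MI-WT) with a library left out, and was -0.63 without its top nucleus. With the CM1 group alone it turned to -0.78 for 1700042O10Rik and -0.40 for Ddc. With the CM3 and CM4 groups alone it turned to 0.21 for Atf3, 0.26 for Mt2, -0.82 for Rian, -0.10 for Tagln and -1.20 for Thsd4. With the Sham libraries alone it turned to 0.068 for Egln3, 0.55 for Hbegf, -0.57 for Meg3, 2.13 for Ndrg1, -0.52 for Rian and 0.92 for Slc2a1. Against CM1/CM1 it turned to -0.092 for Myl4 after thinning, to -0.32 for Meg3, -0.51 for Rian and -0.082 for Tagln with the CM3 and CM4 groups alone, and to -0.50 for Fhl1 with the Sham libraries alone. Tagln in MI-KO against MI-WT turned to -0.26 after thinning.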
